A study of Mus musculus with 6 samples.

Results

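The 10 genes described here belong to the Notch pathway and to the repressor families around it, and were followed in cultured mouse myotubes: the receptor genes Notch1, Notch2 and Notch3, the ligand gene Jag1, the repressor genes Hes1, Hey1 and Heyl, and the inhibitor genes Id1, Id2 and Id3. They were taken by symbol, as a named list, and all 10 were found among the 24411 symbols listed in the count tables and among the 13076 genes that passed the filter on low counts. The cells were C2C12, an immortalised mouse myoblast line of wild-type genotype per the labels, differentiated in medium with 2% horse serum. Fully differentiated cultures received DMSO, the solvent (3 libraries), or Sardomozide dihydrochloride, an inhibitor of the enzyme encoded by Amd1, at 10 µM (3 libraries), in both cases for 72 h. Both groups share the line, the medium and the 72 h of culture, and all results come from this 1 cell line. The labels give "mouse myoblasts" as the cell type but myotubes in the titles, and nothing in them tells if a group's 3 libraries are separate cultures. P-values thus reflect library-to-library spread alone, and that spread may be technical.

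Notch receptors sit in the cell membrane and are bound by ligands of the Jagged and Delta families on a neighbouring cell. The bound receptor is cut, and its intracellular part enters the nucleus, joins the DNA-binding protein RBPJ and switches on target genes, among them the Hes and Hey genes, whose products repress transcription. In muscle the pathway is known for holding satellite cells and myoblasts back from differentiation. Id proteins carry the dimerisation helices of the basic helix-loop-helix family but no DNA-binding region, and they keep E proteins away from MyoD and its relatives. Id genes are well known targets of bone morphogenetic protein (BMP) signals.

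Library totals ran from 25496323 to 36709804 counts, and the 10 genes had between 322 and 11905 counts in a library. Levels are given as CPM, with library sizes scaled by the TMM method. Amd1 itself had at most 3 counts in any library, so the counts give no check of the drug's target. The myotube markers were abundant, with Acta1 (skeletal actin) at 4783.3 ± 185.4 and 4809.8 ± 97.5 CPM and Myh3 (embryonic myosin) at 4155.7 ± 191.3 and 4359.4 ± 424.1 CPM with DMSO and Sardomozide (SD, n = 3). Sardomozide replicate 2 stood apart in Ttn, the titin gene, with 4043.4 CPM against 1371.7 to 1744.5 CPM in the other libraries. All 6 endothelial markers stayed below 1 CPM, with Cdh5 and Erg the highest, and Calcr and Chrdl2 among 9 satellite and reserve cell markers had no count. That list, led by Cdh15 and Sdc4, summed to 1146.3 to 1149.2 CPM with DMSO and 1054 to 1097.9 CPM with Sardomozide. Cycling markers (8 genes, led by Mki67 and Top2a) summed to 331.7 to 361.1 and 346.4 to 406.1 CPM. Fibroblast markers (5 genes, led by Ly6a and Dcn) summed to 56.2 to 79.5 and 40.1 to 49.9 CPM, and mural cell markers (6 genes, led by Pdgfrb and Cspg4) to 411.2 to 478.6 and 387.2 to 450.5 CPM. Two-sided exact permutation tests of the 6 marker sums gave p between 0.1, the smallest that 3 against 3 libraries allow, and 0.9, with adjusted p between 0.3 and 0.9. Single markers did pass edgeR's test. Spry1 of the satellite and reserve cell list fell by 14.3% (adjusted p = 0.0037), and Dcn of the fibroblast list fell by 41.5% (0.00187). On the mural cell list Cspg4 fell by 20.9% (0.000161) and Abcc9 fell by 59.8% (0.0129), and on the cycling list Mki67 rose by 12.1% (0.0443). In bulk RNA, fewer cells of a type and less RNA per cell cannot be told apart, and the part of these markers in the results below was not tested.

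Of the 10 genes, Id2 and Notch1 rose, Hes1 fell and 7 did not pass the test (edgeR's quasi-likelihood test, Benjamini-Hochberg adjusted p under 0.05 over all genes tested). Over all genes tested, 16.3% passed, 7.88% as higher and 8.45% as lower. The median log2 fold change was −0.01 over the 10 genes and −0.001 over all genes. Id2 rose by 22.8%, Notch1 rose by 14.4%, and Hes1 fell by 11.8%. The groups did not overlap for 4 of the 10 genes, namely these 3 and Jag1, where 33.5% of all genes tested did not overlap. Only the call of Id2 held whichever library was left out, while those of Notch1 and Hes1 were each lost in 4 of 6 such fits.

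**Figure D1:**
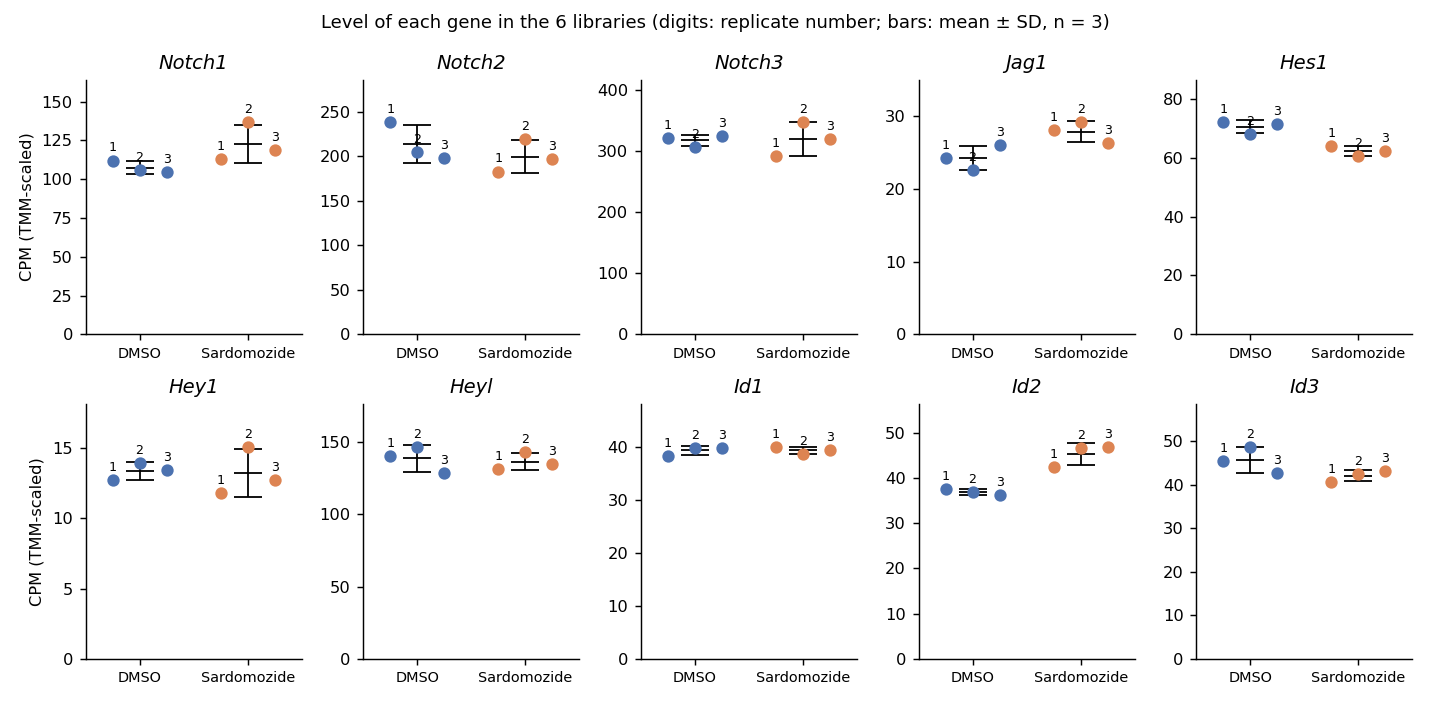
Level of each of the 10 genes in every library, in TMM-scaled CPM on an axis from 0, with points numbered by replicate and black bars for the mean ± SD of 3 libraries. Id2, Notch1, Jag1 and Hes1 show no overlap between DMSO (blue) and Sardomozide (orange), and Id1 sits between 38.3 and 40 CPM in all 6 libraries.

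Notch1 encodes a receptor that acts in satellite cells and in many other tissues (chromosome 2, 26457903 to 26516663, GRCm38). It was at 112.1, 105.7 and 104.9 CPM with DMSO and at 113.3, 136.8 and 118.9 CPM with Sardomozide. The groups did not overlap, but Sardomozide replicate 1 lay just above DMSO replicate 1, and Sardomozide replicate 2 was the highest. Notch1 rose by 0.19 ± 0.06 on the log2 scale (SE, edgeR adjusted p = 0.0353). Without Sardomozide replicate 2 the estimate was 0.11 with adjusted p = 0.156, the lowest estimate over these fits. Without DMSO replicate 1, 2 or 3 the adjusted p was 0.0518, 0.114 and 0.128. Of the 8 cycling markers, 2 (Mki67 and Ccna2) were highest in Sardomozide replicate 2, 5 in Sardomozide replicate 3 and 1 in DMSO replicate 3. Only Mki67, a gene of cycling cells, passed among the 8, as higher (log2 fold change 0.16 ± 0.054, edgeR adjusted p = 0.0443). Tested genes whose mean log2 CPM was 4 or more were also grouped by exon length. Among 1399 in the range of the 3 receptor genes, the median log2 difference of Sardomozide replicate 2 from the DMSO mean was 0.017. This was the highest of the 6 libraries, against 0.006 for 6111 shorter genes. The part of these values in the result was not tested.

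Notch3, a receptor of satellite cells and of vessel walls (chromosome 17, 32120820 to 32166852), did not pass. It was at 321.1, 307.6 and 325 CPM with DMSO and at 291.6, 347.8 and 319.9 CPM with Sardomozide. Its log2 fold change was 0.01 with a 95% interval from −0.10 to 0.12, which leaves room for changes of that size. Notch2 (chromosome 3, 98013527 to 98150361) was at 238.4, 205.4 and 198 CPM with DMSO and at 183, 219.3 and 197 CPM with Sardomozide, with a log2 fold change of −0.10 (95% interval −0.30 to 0.10, edgeR adjusted p = 0.505). Its highest library was DMSO replicate 1, without which the estimate was −0.01. The receptors' libraries were ordered alike under Sardomozide, with replicate 2 highest and replicate 1 lowest for each of the 3 genes. Taken as a share of the CPM of the 3 receptor genes, Notch1 made up 16.7%, 17.1% and 16.7% with DMSO and 19.3%, 19.4% and 18.7% with Sardomozide. This share is a description with no test, and it was higher in all 3 Sardomozide libraries than in any DMSO library. Notch3 made up 47.8% to 51.8% and 49.4% to 50.3%, and Notch2 31.5% to 35.5% and 31% to 31.2%.

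The windows upstream of the RefSeq start sites of Notch1, whose counts rose, and Notch3, whose counts did not pass, are shown side by side (GRCm38.p6, minus strand, 5′ to 3′). The Notch1 stretch is chr2:26503825-26504072, which ends 3 bases before the start site and lies inside the annotated span of the gene but outside its exons, and the Notch3 stretch is chr17:32166891-32167140. Capitals mark matches to the N-box CACNAG, a motif bound by Hes repressors, searched on both strands.
Notch1: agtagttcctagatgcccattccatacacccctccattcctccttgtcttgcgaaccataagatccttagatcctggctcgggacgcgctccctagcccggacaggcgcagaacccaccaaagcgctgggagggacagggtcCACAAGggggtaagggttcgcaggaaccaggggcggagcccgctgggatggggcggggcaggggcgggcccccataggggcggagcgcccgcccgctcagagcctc
Notch3: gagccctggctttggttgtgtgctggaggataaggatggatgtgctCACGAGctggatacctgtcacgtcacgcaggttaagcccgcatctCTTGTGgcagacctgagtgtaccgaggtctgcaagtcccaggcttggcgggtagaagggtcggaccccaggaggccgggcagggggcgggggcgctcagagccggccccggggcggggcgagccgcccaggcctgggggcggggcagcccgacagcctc
Notch1 had 1 match, whose first base lies at −108, and Notch3 had 2, at −204 and −159. An N-box was present in 36.7% of the 32851 promoter windows of 250 bases in the RefSeq table. The core letters of the RBPJ site, TGGGAA, occurred in neither window and in 21.6% of all windows, and no E-box (CANNTG) occurred in either; 66.2% of all windows held one. The window of Notch2, which did not pass either, held 1 N-box, at −247, and no TGGGAA or E-box. Of the 10 genes, 6 had an entry in the RefSeq table. Hes1, Hey1, Heyl and Id1 did not.

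Jag1 encodes a ligand of Notch receptors (chromosome 2, 137081456 to 137116644). It was at 24.3, 22.6 and 26 CPM with DMSO and at 28.1, 29.2 and 26.4 CPM with Sardomozide. The groups were close but did not overlap. The log2 fold change was 0.20 ± 0.076 (95% interval 0.04 to 0.36), and the gene did not pass (edgeR adjusted p = 0.0743). Whichever library was left out, its estimate lay between 0.15 and 0.25 and its adjusted p between 0.0644 and 0.28.

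**Figure D2:**
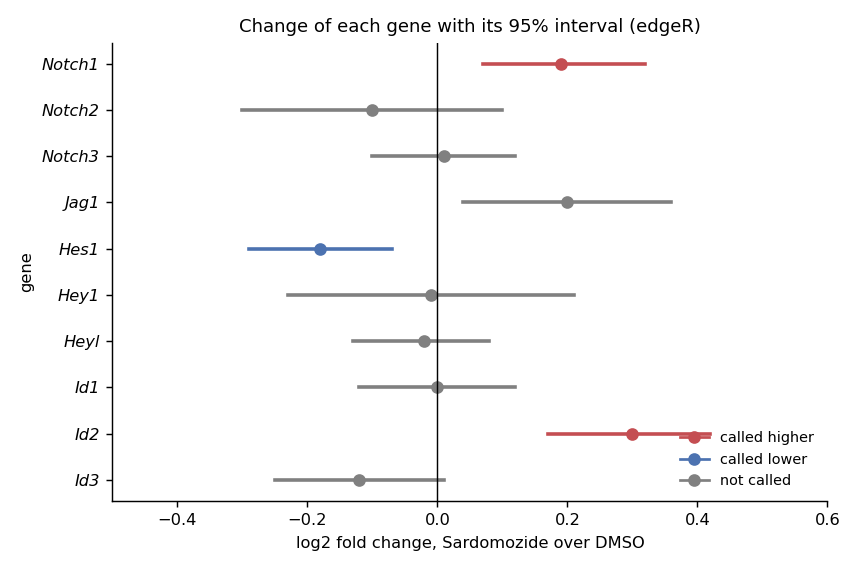
Log2 fold change of Sardomozide over DMSO for each gene, with points for the edgeR estimate and lines for its 95% interval. Id2 and Notch1 (red) lie above 0 and Hes1 (blue) below, and among the genes that did not pass (grey) the interval of Jag1 starts at 0.04.

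Hes1 encodes a repressor that is the best known direct target of Notch in many cells (chromosome 16, 30064384 to 30067796). It was at 72, 68 and 71.5 CPM with DMSO and at 63.8, 60.6 and 62.2 CPM with Sardomozide, so every Sardomozide library lay below every DMSO library. Hes1 fell by 0.18 ± 0.051 on the log2 scale (SE, edgeR adjusted p = 0.0185). The estimate stayed between −0.21 and −0.16 whichever library was left out. It did not pass without DMSO replicate 1 or 3 (adjusted p = 0.0858 and 0.0748) or without Sardomozide replicate 2 or 3 (0.0578 and 0.0506).

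Hey1 and Heyl encode related repressors that act downstream of Notch, and neither passed. Heyl (chromosome 4, 123233556 to 123249875), the more abundant of the pair, was at 140.5, 146.8 and 128.4 CPM with DMSO and at 131.4, 142.7 and 134.8 CPM with Sardomozide. Its log2 fold change was −0.02 with a 95% interval from −0.13 to 0.08. Hey1 (chromosome 3, 8663359 to 8667256) was at 12.7, 13.9 and 13.4 CPM with DMSO and at 11.8, 15.1 and 12.7 CPM with Sardomozide (log2 fold change −0.01, 95% interval −0.23 to 0.21). The Sardomozide libraries spanned the whole DMSO range for Hey1, and the interval of Hey1 was the widest among the 10 genes. The fall of Hes1 is not shown to differ from the changes of Hey1 and Heyl, since no test of that difference was run.

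Id2 encodes an inhibitor that binds E proteins (chromosome 12, 25093799 to 25097140). It was at 37.6, 36.9 and 36.2 CPM with DMSO and at 42.4, 46.6 and 47 CPM with Sardomozide. Every Sardomozide library lay above every DMSO library, with Sardomozide replicate 1 the nearest. Id2 rose by 0.30 ± 0.061 on the log2 scale (SE, 95% interval 0.17 to 0.42, edgeR adjusted p = 0.00207), from 36.9 ± 0.714 to 45.3 ± 2.53 CPM (SD, n = 3). Whichever library was left out, the estimate lay between 0.27 and 0.34 and the adjusted p between 0.00101 and 0.014. Its change was the only one among the 10 genes above the median size of all called changes, 0.27 on the log2 scale.

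The stretch upstream of the RefSeq start site of Id2 that lies outside annotated exons is chr12:25096254-25096342 (GRCm38.p6, minus strand, positions −250 to −162). In the GENCODE annotation it is an intron of a longer Id2 transcript. It is shown because Id2 is the member whose rise held in every fit, and capitals mark its E-box (CANNTG), the motif bound by the partners that Id proteins sequester.
Id2: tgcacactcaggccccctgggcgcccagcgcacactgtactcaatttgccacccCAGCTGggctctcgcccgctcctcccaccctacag
The E-box starts at −196. A match to GGCGCC, a GC-rich palindrome bound by BMP-responsive Smads, starts at −231, and such a match was present in 9.59% of all windows.

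Id1 (chromosome 2, 152736251 to 152737410) was the steadiest of the 10 genes. It was at 38.3, 39.7 and 39.8 CPM with DMSO and at 40, 38.5 and 39.3 CPM with Sardomozide. Its log2 fold change was 0 with a 95% interval from −0.12 to 0.12. Id3 (chromosome 4, 136143497 to 136145755) was at 45.5, 48.8 and 42.8 CPM with DMSO and at 40.6, 42.4 and 43.1 CPM with Sardomozide. The groups overlapped, since DMSO replicate 3 lay below Sardomozide replicate 3, and the gene did not pass (log2 fold change −0.12, 95% interval −0.25 to 0.01, edgeR adjusted p = 0.197). The 3 Id genes together summed to 121.4, 125.5 and 118.8 CPM with DMSO and 123, 127.6 and 129.3 CPM with Sardomozide, so the sums overlapped. Within that sum Id2 held 31%, 29.4% and 30.5% with DMSO and 34.5%, 36.5% and 36.3% with Sardomozide. Id3 held 36% to 38.9% and then 33% to 33.3%, and Id1 31.5% to 33.5% and 30.2% to 32.5%. With DMSO Id3 had the largest share of counts in every library, and in Sardomozide libraries Id2 did. These shares are a description with no test, and they count reads, not transcripts per length.

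The fourth Id gene, Id4, did not pass the filter on low counts. Its counts were 2, 1 and 5 under DMSO against 17, 7 and 11 under Sardomozide. The groups did not overlap, but with no filter its edgeR p was 0.0391 before and 0.17 after adjustment over 17067 genes. Id4 was singled out after its values were seen.

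Levels of different genes were compared per length, as CPM per kilobase of annotated exon. With DMSO the order was Notch3 (39.3 ± 1.13), Hes1 (34.6 ± 1.09), Id1 (33.9 ± 0.738), Heyl (27.1 ± 1.83), Id3 (25.5 ± 1.69), Notch2 (19.8 ± 1.99), Id2 (15.1 ± 0.293), Notch1 (7.56 ± 0.276), Jag1 (4.17 ± 0.289) and Hey1 (4.09 ± 0.196; SD, n = 3). Neighbours whose libraries overlapped were Hes1 and Id1, Heyl and Id3, and Jag1 and Hey1. With Sardomozide, Id1 at 33.8 ± 0.638 stood above Hes1 at 30.5 ± 0.786 in every library. Id2, at 18.6 ± 1.04, overlapped with Notch2 at 18.5 ± 1.7. The other genes kept their places. With the longest annotated transcript as the length, Hes1 led with DMSO at 48 and Notch3 followed at 39.7, so the order of the most abundant genes depends on the gene model.

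**Figure D3:**
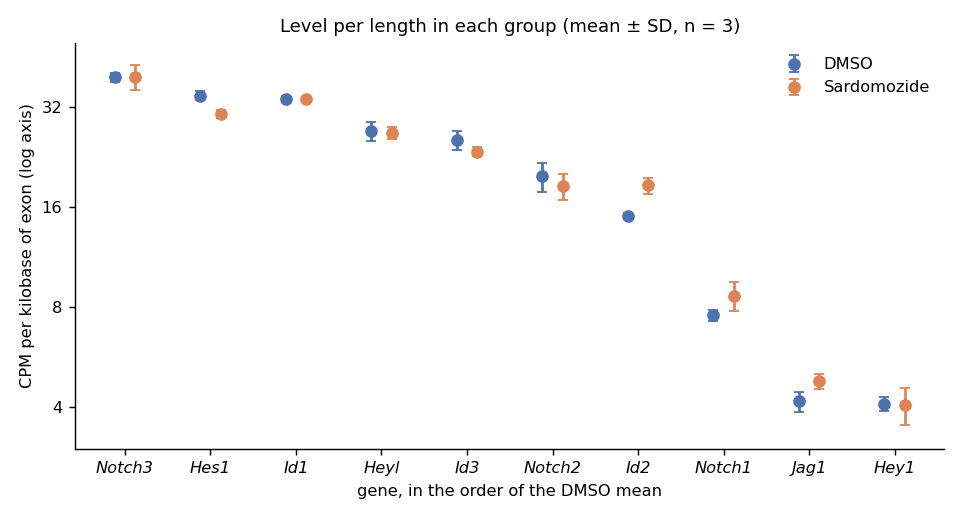
CPM per kilobase of exon for each gene on a log axis, with DMSO in blue and Sardomozide in orange, points for the mean and bars for the SD of 3 libraries. Levels run from about 4 for Jag1 and Hey1 to 39.3 for Notch3, and Id2 moves from 15.1 to 18.6, level with Notch2.

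The rest of the Notch pathway was read from lists of 67 further genes, of which 56 were tested. Of these 3 rose, 10 fell and 43 did not pass, with a median log2 fold change of −0.04, beside 7.88% higher, 8.45% lower and a median of −0.001 over all genes tested. Without DMSO replicate 1, 2 or 3, 1 gene rose and 4, 5 and 3 fell. Without Sardomozide replicate 1, 2 or 3, 1, 2 and 2 rose and 8, 7 and 9 fell. Calls over all genes dropped too, from 1030 higher and 1105 lower in the full fit. With a DMSO library left out, 620, 738 and 672 genes rose and 706, 865 and 771 fell. With a Sardomozide library left out, 927, 877 and 807 rose and 1025, 990 and 853 fell. These fits tested 13192 to 13289 genes. Among 8 other receptors and ligands, 4 were tested and Dll1 rose. Dll1, the Delta ligand gene that myogenic cells present to their neighbours, was at 64.4, 60.5 and 62.7 CPM with DMSO and at 78.2, 79.3 and 83.5 CPM with Sardomozide. The groups were far apart, and the gene rose by 0.36 ± 0.051 on the log2 scale (edgeR adjusted p = 5.53e-05). That call held in all 17 alternative settings, and the estimate lay between 0.33 and 0.38 whichever library was left out. Dll1 overlaps the annotated antisense gene A930024N18Rik over 867 exon bases, and the use of strand in the counting is not given in the sources used here.

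None of 14 tested genes of receptor cleavage and glycosylation passed, where 16.3% of all genes tested did. Over all 13076 genes tested, at least 3813 had an unadjusted edgeR p under 0.05. Among the 14 the number was 2. These were Lfng, which encodes a Fringe enzyme that modifies the receptors' ligand preference, and Psen2, which encodes a catalytic subunit of gamma-secretase (log2 fold change −0.32 ± 0.12 and −0.19 ± 0.08, edgeR adjusted p = 0.0826 and 0.11). DESeq2 and limma-voom also called 0 of the 14.

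In the nuclear list, 6 of 16 tested genes fell and 0 rose, with a median log2 fold change of −0.12, beside 8.45% lower and 7.88% higher over all genes tested. The difference from all genes was not tested. Aes, a short relative of the Groucho corepressors that Hes proteins recruit, fell from 490.1 ± 15.7 to 428.1 ± 3.5 CPM (a log2 change of −0.20 ± 0.041, edgeR adjusted p = 0.00267). The Groucho genes Tle2 and Tle3 fell by 0.54 and 0.16 on the log2 scale, and Kat2b, an acetyltransferase gene of the activating complex, fell by 0.18 (edgeR adjusted p = 0.0166, 0.024 and 0.0239). The Groucho genes Tle1 and Tle4 did not pass, with log2 fold changes of opposite sign, 0.20 and −0.37 (edgeR adjusted p = 0.128 and 0.0713). Rbpj, the DNA-binding partner of the receptors, had a log2 fold change of 0.14 ± 0.061 and did not pass (adjusted p = 0.12).

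Calls in the nuclear list thinned when libraries were left out, and over all genes the falls went from 1105 to between 706 and 1025. Without DMSO replicate 1, 2 or 3 there were 2, 2 and 1 falls, and without Sardomozide replicate 1, 2 or 3 there were 5, 4 and 4. The call of Aes held in each of these fits (largest adjusted p = 0.023). Tle2 lost its call without DMSO replicate 1, 2 or 3 (adjusted p = 0.0537, 0.061 and 0.0578). Tle3 lost it without DMSO replicate 2 or 3, or without Sardomozide replicate 2 (0.111, 0.0761 and 0.102). Kat2b lost it without any single DMSO library or without Sardomozide replicate 1 (0.077, 0.0521, 0.0801 and 0.0821).

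Among 14 tested genes of ligand and receptor trafficking and turnover, 1 rose and 2 fell. Over all genes tested, 7.88% rose and 8.45% fell. Mib1, which encodes the ubiquitin ligase that Delta and Jagged ligands need in the sending cell, fell from 107.3 ± 1.68 to 95.3 ± 1.87 CPM (a log2 change of −0.17 ± 0.044, edgeR adjusted p = 0.0103), with an adjusted p of at most 0.0484 whichever library was left out. Dtx4, a Deltex ubiquitin ligase gene, fell by 0.15 on the log2 scale (adjusted p = 0.0261). It did not pass once DMSO replicate 1, 2 or 3 or Sardomozide replicate 2 was removed (0.0926, 0.0592, 0.0794 and 0.0949). Neurl1a, a ligase gene of the Neuralized family, rose by 0.13 on the log2 scale (adjusted p = 0.0355). Its call was lost whichever library was left out (0.0501 to 0.177).

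**Figure D4:**
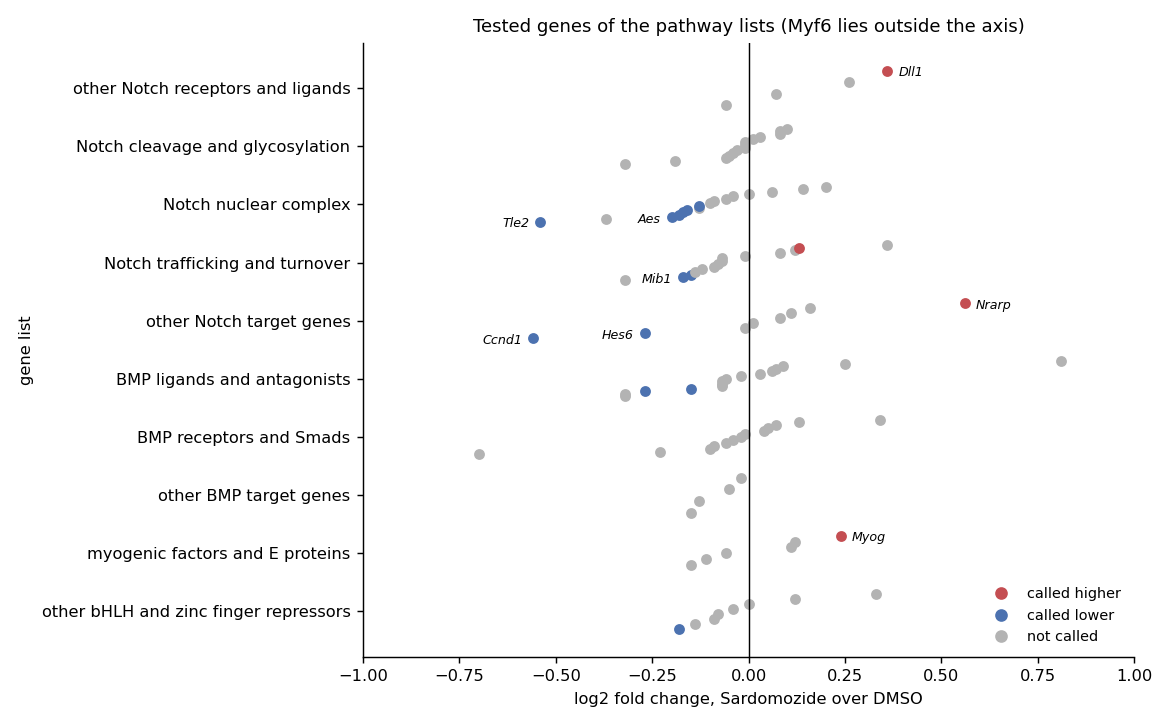
Log2 fold change of Sardomozide over DMSO for every tested gene of the pathway lists but Myf6, which lies outside the axis at −2.49, 1 row per list, with called genes in red (higher) or blue (lower) and the others in grey. In the nuclear list 6 genes are blue and 0 red, and Dll1 at 0.36 and Nrarp at 0.56 stand at the right edge of their lists.

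A list set up as other Notch targets held 13 genes, 8 of them tested. Nrarp rose and Hes6 and Ccnd1 fell, beside 7.88% higher and 8.45% lower over all genes tested. Nrarp encodes a small protein that limits Notch signals as a feedback inhibitor, and it was scarce, with counts of 62, 82 and 91 under DMSO against 162, 117 and 125 under Sardomozide. That is 2.44, 2.55 and 3.05 CPM against 4.44, 3.42 and 4 CPM, with no overlap. The gene rose by 0.56 ± 0.19 on the log2 scale (edgeR adjusted p = 0.0484). It lost the call in 10 of 17 alternative settings, among them DESeq2 (adjusted p = 0.0599), limma-voom (0.0699) and the fits that dropped DMSO replicate 1, 2 or 3, or else Sardomozide replicate 1 or 3 (0.153, 0.135, 0.0566, 0.159 and 0.102). An antisense gene, Gm38287, overlaps 2051 of its exon bases. The window upstream of its start site is chr2:25180508-25180757 (GRCm38.p6, plus strand, 5′ to 3′), shown because Nrarp was the Notch feedback gene that rose, with N-boxes (CACNAG) and the E-box (CANNTG) in capitals.
Nrarp: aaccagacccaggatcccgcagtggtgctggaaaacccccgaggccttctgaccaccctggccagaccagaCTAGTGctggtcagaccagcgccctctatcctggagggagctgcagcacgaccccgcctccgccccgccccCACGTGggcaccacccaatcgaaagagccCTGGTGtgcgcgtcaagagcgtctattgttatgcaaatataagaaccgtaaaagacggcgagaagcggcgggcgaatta
The E-box, with the letters CACGTG, starts at −108 and the N-boxes start at −179 and −79. As in the windows of Notch1 and Notch3, TGGGAA did not occur.

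Hes6, whose product counteracts Hes1 and favours myogenic differentiation, was at 137.4, 138.2 and 146.4 CPM with DMSO and at 114.1, 121.5 and 115.3 CPM with Sardomozide. It fell by 0.27 ± 0.045 on the log2 scale (edgeR adjusted p = 0.000359), and the call held in all 17 alternative settings. Hes6 is counted among the 10 falls in the Notch lists, but whether Notch drives it here was not tested. Ccnd1, the cyclin D1 gene, fell by 0.56 ± 0.15 (adjusted p = 0.0455) and lost its call without DMSO replicate 1 or 3, or without Sardomozide replicate 1 (0.0831, 0.127 and 0.188). It also lost the call with no filter on low counts (0.057) and with counts thinned to the smallest total (0.063). Hes5, a Notch target of neural tissue, had 0 counts in every library, which allows up to 0.0823 to 0.118 CPM (3 counts per library).

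Genes of the BMP pathway, which drives Id genes in many cells, were read from 3 lists. Of 32 tested genes, 0 rose, 2 fell and 30 did not pass, with a median log2 fold change of −0.05, beside 7.88% higher and 8.45% lower over all genes tested. The difference from all genes was not tested. The falls were those of Chrd and Fst, which encode secreted antagonists of BMP and related ligands. Chrd fell from 70.6 ± 3.27 to 58.7 ± 6.73 CPM (edgeR adjusted p = 0.0167) and Fst from 254 ± 16.6 to 229.1 ± 4.42 CPM (0.0329). Both calls were lost without DMSO replicate 2 (0.0698 and 0.0834) and without DMSO replicate 3 (0.0759 and 0.232), and without Sardomozide replicate 2 the log2 fold change of Chrd moved from −0.27 to −0.17 (0.0465). The log2 fold change of Fst moved from −0.15 to −0.10 without DMSO replicate 3, and its call was lost also without Sardomozide replicate 1 or 3 (0.058 and 0.104). Among 13 receptor and Smad genes, 0 passed, and the smallest adjusted p were those of Acvr2b (0.126) and Bmpr2 (0.138). Of the 13, 2 had an unadjusted edgeR p under 0.05, as had at least 3813 of all 13076 genes tested. Of the other BMP targets, Smad6 and Atoh8 had log2 fold changes of −0.15 ± 0.12 and −0.13 ± 0.093 and did not pass. DESeq2 and limma-voom called 0 of the 13 receptor and Smad genes and 0 of the 4 tested targets.

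Partners and relatives of the repressors were read beside them. Of the 7 myogenic factor and E protein genes, Myog rose and Myf6 fell, beside 7.88% higher and 8.45% lower over all genes tested. Myog, the differentiation factor gene that Hes and Id proteins are known to hold down, went from 1108.7 ± 10.3 to 1313.3 ± 45.1 CPM (a log2 change of 0.24 ± 0.043, edgeR adjusted p = 0.000547). Myf6, the factor of mature fibres, went from 3.91 ± 0.526 to 0.702 ± 0.312 CPM (adjusted p = 6.42e-06). The E proteins that Id2 binds are encoded by Tcf3, Tcf4 and Tcf12. Their log2 fold changes were −0.06, 0.12 and 0.11, and none passed (edgeR adjusted p = 0.461, 0.0506 and 0.0813). The groups did not overlap for Tcf4 and Tcf12, as for 33.5% of all genes tested. With library totals alone, and with no filter on low counts, 2 of the 7 genes were called higher. Among 8 other tested repressor genes, Bhlhe40 fell by 0.18 ± 0.043 on the log2 scale (adjusted p = 0.00748), a call lost without Sardomozide replicate 3 (0.0531).

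Genes whose log2 CPM ran most alike over the 6 libraries were sought among 7911 others whose mean log2 CPM was 4 or more. For Notch1 these were Nudt21 and Htt (Pearson r = 0.9979 and 0.9945), for Hes1 Ypel3 and Rab4b (0.9957 and 0.9942), and for Id2 Son and Sestd1 (0.998 and 0.9972). These values describe 6 points that share the difference between the groups, and so many genes searched over 6 points give high values readily. Of these 6 genes, Ypel3 and Sestd1 passed the test of the groups (edgeR adjusted p = 0.0028 and 0.0147), where 16.3% of all genes tested did. The 6 were picked for following called genes over the same libraries, so these calls are not independent of that choice.

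**Figure D5:**
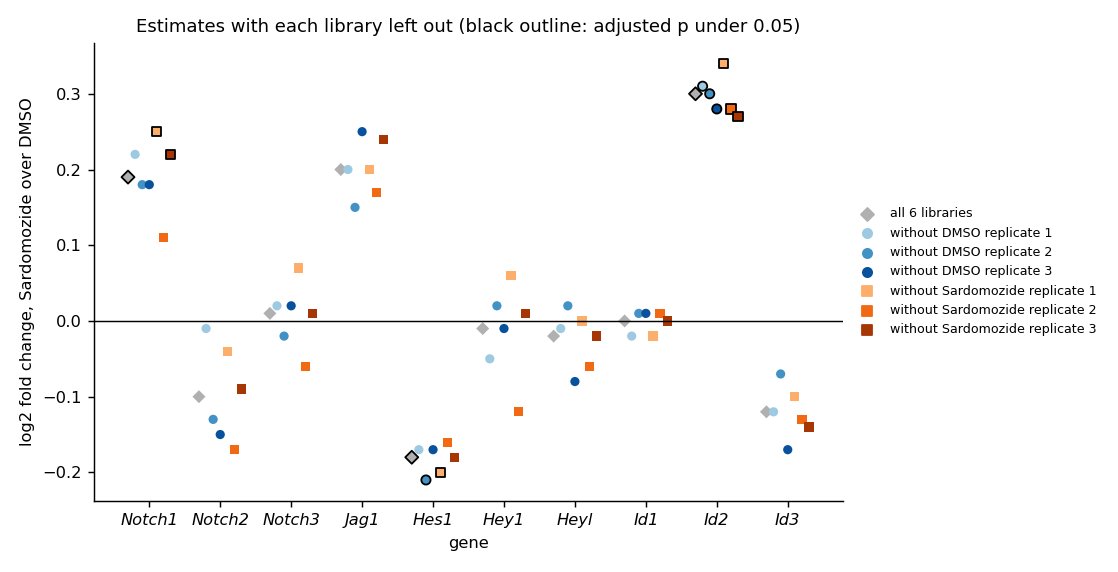
Log2 fold change of Sardomozide over DMSO for each gene with all 6 libraries (grey diamond) and with each library left out (blue circles for DMSO, orange squares for Sardomozide), with black outlines where the adjusted p was under 0.05. Id2 is outlined in all 7 fits, whereas Notch1 ranges from 0.11 to 0.25 and Hes1 from −0.21 to −0.16 with the outline missing in 4 fits each.

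Reads from near-identical copies were considered by shared sequence. Of the words of 50 bases in the annotated transcripts of each gene, 0 occurred in transcripts of any other gene for Notch1, Jag1, Hes1, Hey1, Heyl, Id1 and Id3. The share was 0.329% for Id2, 0.087% for Notch3 and 3.755% for Notch2, whose sequence overlaps the gene model Gm42820. Annotated genes on the other strand overlap exons of Notch1 (0610009E02Rik, over 1068 bases, and Gm13568, over 414) and of Notch3 (Gm17276, over 488).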

How the data were processed

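RNA of 6 C2C12 libraries was sequenced by the submitters, who deposited a table of raw counts per gene for each library. The authors' counts are whole numbers with no normalization, and column 2 of each table was used. STAR, StringTie, DESeq2, GRCm38 and mm10 are named, per the submitters' processing notes, without roles or versions. Annotation, strand use and treatment of multi-mapped reads: not given in the sources used here. Per the labels' protocols, RNA was purified on RNeasy columns.

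Genes were filtered with filterByExpr (minimum count 10, minimum total 15), scaled by TMM and tested with edgeR 4.0.16 (quasi-likelihood F test, robust, R 4.3.3) on treatment alone, with Benjamini-Hochberg adjustment over all 13076 genes. Each SE is the fold change divided by the root of its F value. Alternatives used DESeq2 1.42.0, limma 3.58.1 (voom), other scalings and filters, thinned counts, a replicate block and fits without 1 library. Coordinates and exon lengths come from GENCODE on GRCm38, and promoter windows from RefSeq (GRCm38.p6). The members and lists were chosen with earlier results of these data known. Beyond the members, the text names up to 4 called genes per list by adjusted p (the 2 smallest where none was called), the 2 most abundant markers per list, and the 2 genes most correlated with Notch1, Hes1 and Id2. Outside this rule, Rbpj, Tle1, Tle4, Hes5, Id4, Tcf3, Tcf4, Tcf12, Ttn, Ccna2, Spry1, Abcc9, Calcr and Chrdl2 were named after their values were seen. No pair of libraries of the same group agreed within sampling noise (chi-square per degree of freedom 5.45 to 16.1). On data simulated for this comparison (12972 genes), the test called 0.117% of unchanged genes. It recovered 58% of 1.2-fold changes, 73.5% of 1.5-fold, 91.8% of 2-fold and 100% of 4-fold changes. These changes were carried by 50, 49, 49 and 48 genes drawn at random, a far smaller part than the 16.3% called here. The values of 1 listed gene are not reported here.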

Additional observations from a re-analysis of the deposited data

How the results depend on the processing

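Id2 kept its call in all 17 alternatives. At an adjusted p under 0.01, genes called higher over all genes went from 1030 to 501 and those called lower from 1105 to 578, members called higher from 2 to 1 and members called lower from 1 to 0. Notch1 (log2 fold change 0.19, adjusted p 0.0353) and Hes1 (−0.18, 0.0185) do not pass that threshold. When 1 library was left out, 620 to 927 genes were called higher and 706 to 1025 lower, 1 to 2 members were called higher and 0 to 1 lower. The estimate then ran from 0.11 to 0.25 for Notch1 and from −0.21 to −0.16 for Hes1, and these fits have fewer samples. Other scalings, filters, tools and thinned counts gave the same 3 member calls, and no scaling moved the median of all genes by more than 0.003. With the longest transcript as length, the DMSO level per kilobase was 11.3 for Notch1, 48 for Hes1, 30.5 for Heyl, 5.51 for Hey1, 18.7 for Id2 and 35.8 for Id3.

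Same-numbered libraries did not deviate together (correlations −0.02, −0.05 and −0.01, against −0.06 to 0.08 for other pairs), so the numbers were not taken to pair the samples. With a replicate block, Notch1, Id2 and Hes1 were called as before, with 2 members higher and 1 lower.

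With 3 libraries a group, the test recovered 58% of simulated 1.2-fold changes and missed the others. The simulation changed a far smaller part of the genes than the 16.3% called here, so this rate need not hold for these data.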
